A study of Mus musculus with 4 samples.

Results

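Trp53, the gene for the tumour suppressor p53, was followed together with its negative regulators Mdm2, Mdm4 and Ccng1. Beside them stood 6 genes that p53 switches on, namely Cdkn1a, Plk2, Perp, Phlda3, Zmat3 and Trp53inp1. These 10 genes were taken by symbol from the 35976 gene rows of a table of raw read counts, and all 10 passed the filter on low counts. The libraries came from mouse E14 embryonic stem cells grown on gelatin-coated plates in serum and LIF, a cytokine that keeps such cells from differentiating. In the knockdown group (2 libraries, genotype label "knocked down") a short hairpin RNA targeted Lx8-SINE B2. The hairpin was expressed from the pSuper puro vector, which carries puromycin resistance. The name of the target joins Lx8 to SINE B2, where B2 is a family of short interspersed repeats. The control group (2 libraries, genotype label "wild type") shared the cell line and the single description of transfection and puromycin selection attached to all samples, and that description does not say what the control cells received. The number of hairpins and clones behind the knockdown libraries was not given, and neither was whether separate cultures were used, so p-values measure only a spread between libraries that may be technical. Only the knockdown titles carry the word batch, so the knockdown and a batch cannot be told apart.

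The p53 protein is held at a low level by the ubiquitin ligase MDM2 and kept inactive by the related protein MDM4. When DNA damage, ribosomal stress or other signals release it, it binds DNA as a tetramer and activates genes for arrest, repair and death, and Mdm2 among them, which closes a negative feedback loop. Control acts mainly on the stability of the protein, so the level of Trp53 mRNA is a poor guide to p53 activity. Mouse embryonic stem cells contain much Trp53 mRNA and are known for a weak arrest in the first gap phase of the cell cycle after damage.

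The DNA that p53 binds is a pair of 10-base units side by side, each with a C and a G at its centre. The promoter windows of 7 of the 10 genes were found in the RefSeq table of GRCm38.p6, where a window spans 250 bases before to 50 bases after a start site, with 2 windows each for Mdm4 and Cdkn1a. The p53 response element was searched as both units with no gap, with the central C and G bases kept and at most 1 other mismatch in 20 bases; the element reads the same on both strands. Windows of Ccng1 and Cdkn1a held 1 match each, and those of Trp53, Mdm2, Mdm4, Plk2 and Phlda3 held none. Among all 32851 windows of the table, 22 (0.067%) held a match. The 250 bases before the start site are shown for these 2 genes, since they hold the element in capitals, and for Mdm2 and Plk2, the called genes whose controls differed least, by factors of 1.01 and 1.14; the Ccng1 window was added after its match was seen.
Cdkn1a upstream start, chr17:29090729-29090978, plus strand: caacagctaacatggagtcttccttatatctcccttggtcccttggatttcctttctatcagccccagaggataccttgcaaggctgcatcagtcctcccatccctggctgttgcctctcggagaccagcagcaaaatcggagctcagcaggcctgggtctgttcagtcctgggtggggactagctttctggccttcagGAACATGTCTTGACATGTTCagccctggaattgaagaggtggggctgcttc
Ccng1, chr11:40755287-40755536, minus strand: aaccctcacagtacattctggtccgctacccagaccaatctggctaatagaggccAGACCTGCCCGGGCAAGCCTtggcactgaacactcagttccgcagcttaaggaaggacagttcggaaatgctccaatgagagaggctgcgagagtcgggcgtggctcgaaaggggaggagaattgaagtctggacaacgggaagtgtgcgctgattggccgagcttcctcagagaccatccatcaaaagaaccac
Mdm2, chr10:117710759-117711008, minus strand: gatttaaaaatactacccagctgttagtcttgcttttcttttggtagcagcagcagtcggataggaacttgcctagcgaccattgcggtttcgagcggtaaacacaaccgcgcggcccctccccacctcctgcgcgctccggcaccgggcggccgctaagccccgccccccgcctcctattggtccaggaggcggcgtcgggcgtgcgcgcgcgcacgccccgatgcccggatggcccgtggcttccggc
Plk2, chr13:110394794-110395043, plus strand: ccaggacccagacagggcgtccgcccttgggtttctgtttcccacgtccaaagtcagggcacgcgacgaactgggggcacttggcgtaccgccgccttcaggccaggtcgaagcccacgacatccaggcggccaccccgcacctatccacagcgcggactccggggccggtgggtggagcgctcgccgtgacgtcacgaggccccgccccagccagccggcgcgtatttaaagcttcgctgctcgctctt
The Cdkn1a match lies 51 to 32 bases before the more distal of 2 annotated starts, which are 2790 bases apart; the window of the other start held no match. The Ccng1 match lies 195 to 176 bases before its start. A match describes letters only, and a window without one may have elements elsewhere, as Mdm2 is known to have in its first intron.

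By edgeR's quasi-likelihood test with Benjamini-Hochberg adjustment over 16209 genes, 4 of the 10 rose (Mdm2, Plk2, Perp and Phlda3) and 0 fell, at an adjusted p under 0.05. Of all tested genes 0.876% rose and 0.555% fell by this rule, or 1.43% in either direction. The 10 genes were chosen with earlier results of these data known, so shares of all tested genes give a background and no test of the list. Before adjustment, 8 of the 10 were higher and 0 lower at a p under 0.05, a rule that 11.0% and 8.58% of all tested genes met in those directions. DESeq2, a test with more calls in these data, called 8 higher and 0 lower, against 3.81% and 3.02% of all tested genes. The median log2 fold change, knockdown over control, was 1.41 over the 10 genes and 0.01 over all tested genes. Both knockdown libraries lay above both control libraries in all 10 genes, an arrangement that 27.3% of all tested genes showed. The sum of the 10 genes was 3166 and 2912 CPM in the knockdown libraries, against 1489 and 1682 CPM in the control libraries, where CPM are read counts relative to library size, scaled by TMM, edgeR's correction for library composition. In RNA from whole cultures, more cells with a transcript and more transcript per cell cannot be told apart. Histone genes, whose main transcripts lack a poly(A) tail, took 0.0266% and 0.0847% of counts in the knockdown libraries, against 0.010006% and 0.0134% in the control libraries, so knockdown replicate 2 stood apart. Mitochondrial transcripts took 0.597% and 0.723% in the knockdown libraries, against 0.657% and 1.13% in the control libraries, where control replicate 2 was the high one. Mdm2, Plk2, Perp and Phlda3 also passed without knockdown replicate 2 and without control replicate 2, and the part of these shares in the results was not tested.

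**Figure D1:**
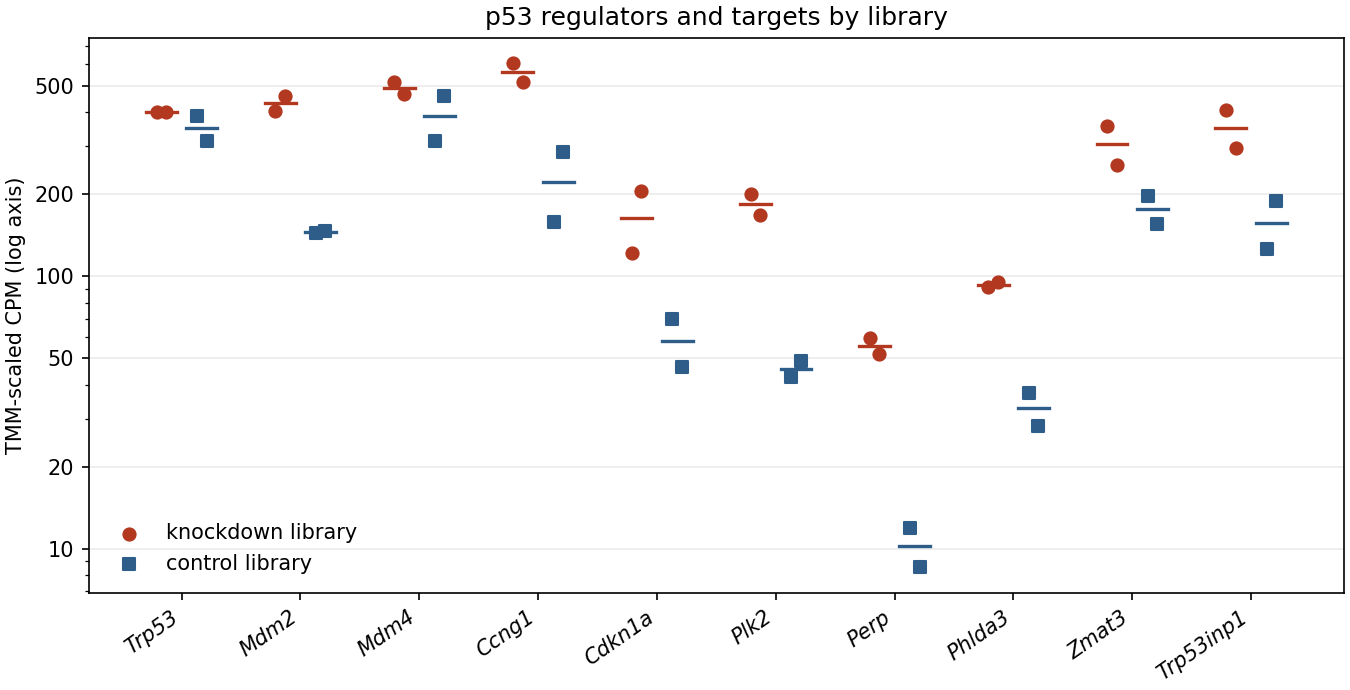
TMM-scaled CPM on a log axis of each gene in each library, with knockdown libraries as circles, control libraries as squares and the mean of a group as a bar. The groups stand well apart in Mdm2, Plk2, Perp and Phlda3 and nearly touch in Trp53 and Mdm4.

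Trp53 itself was not called. It was measured at 399.97 and 399.2 CPM in the knockdown libraries, against 387.6 and 312.7 CPM in the control libraries. The knockdown libraries gave almost the same value, and the gap to the higher control was a factor of 1.03. The log2 fold change was 0.19 ± 0.18 (SE), with a 95% interval of -0.23 to 0.61 (edgeR adjusted p = 0.613), so the test did not show a difference. Without control replicate 2 the log2 fold change was -0.0072. The gene lies on chromosome 11 from 69580359 to 69591873 (mm10, GENCODE M21, as for all gene positions here but not the promoter windows) and its exons overlap those of no other gene.

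Mdm2, which encodes the ligase that marks p53 for degradation, rose. Its level was 405.8 and 457.1 CPM in the knockdown libraries, against 144.7 and 146.2 CPM in the control libraries. The controls differed from each other by a factor of 1.01, and all 4 pairings of a knockdown with a control library gave 2.77-fold to 3.16-fold. The fitted fold was 2.97 (log2 fold change 1.57, standard error 0.17, edgeR adjusted p = 0.012), and the gene ranked 24 of 16209 by p. It lies on chromosome 10 from 117688875 to 117710758 on the minus strand.

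Mdm4, whose product binds the same part of p53 and blocks its activity without being a strong ligase on its own, was not called. Its level was 515.8 and 467.3 CPM in the knockdown libraries, against 313.7 and 460.1 CPM in the control libraries. Control replicate 2 came within a factor of 1.02 of the lower knockdown library, while control replicate 1 lay well below. The log2 fold change was 0.35 ± 0.22 (SE), with a 95% interval of -0.16 to 0.85 (edgeR adjusted p = 0.43).

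The mRNA levels of the inhibitors were compared within each library in CPM per kilobase of exon. The length used joins all annotated exons of a gene, so the size of a ratio depends on the annotation. Such ratios do not give the balance of the proteins. Mdm2 stood at 2.29 and 2.85 times Mdm4 in the knockdown libraries, against 1.34 and 0.925 times in the control libraries. Relative to Trp53, the per-kilobase level of Mdm2 was 0.807 and 0.911 in the knockdown libraries, against 0.297 and 0.372 in the control libraries. The groups did not overlap in either ratio. With 2 libraries against 2, an exact two-sided permutation test cannot go below 0.333, which is the value both ratios gave. The ratio of Mdm4 to Trp53 did overlap, at 0.352 and 0.32 in the knockdown libraries and 0.221 and 0.402 in the control libraries (exact permutation p = 1).

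Ccng1 encodes cyclin G1, an early known p53 target whose product brings a phosphatase to MDM2 and so limits p53. Its level was 606.4 and 517.4 CPM in the knockdown libraries, against 158.9 and 285.5 CPM in the control libraries. No other of these genes varied as much between controls, which differed by a factor of 1.80, and the 4 pairings ranged from 1.81-fold to 3.82-fold. The log2 fold change was 1.34 ± 0.28 (SE) and just missed the threshold (edgeR adjusted p = 0.0589). It passed without control replicate 1, at 0.97 (edgeR adjusted p = 0.0382), and without control replicate 2, at 1.77 (edgeR adjusted p = 0.0152), but not without knockdown replicate 1, at 1.22, or knockdown replicate 2, at 1.45 (edgeR adjusted p = 0.0796 and 0.0597). Ccng1 lies on chromosome 11 from 40748552 to 40755311 on the minus strand, and carries the matched element shown above.

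Cdkn1a encodes p21, the inhibitor of cyclin-dependent kinases through which p53 halts the cycle. It was found at 121.7 and 204.8 CPM in the knockdown libraries, against 69.7 and 46.4 CPM in the control libraries. Both groups were uneven, by a factor of 1.68 between knockdown libraries and 1.50 between controls, and the 4 pairings ranged from 1.75-fold to 4.41-fold. The log2 fold change was 1.49 ± 0.29 (SE) (edgeR adjusted p = 0.0543), almost the size seen for Mdm2 and Phlda3 but with a wider spread. It passed without knockdown replicate 1, at 1.81 (edgeR adjusted p = 0.00486), and without control replicate 1, at 1.81 (edgeR adjusted p = 0.0368). It did not pass without knockdown replicate 2, at 1.07 (edgeR adjusted p = 0.146), or without control replicate 2, at 1.17 (edgeR adjusted p = 0.0946). The gene lies on chromosome 17 from 29090976 to 29100727, and 7.68% of its exon bases overlap an exon annotated on the opposite strand, whose reads cannot be told apart without a stated strand setting.

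Plk2, a polo-like kinase gene that acts in centriole duplication and is induced by p53, rose. Its level was 200.7 and 167.6 CPM in the knockdown libraries, against 42.7 and 48.8 CPM in the control libraries. Every pairing gave at least 3.43-fold, and the fitted fold was 4.02 (log2 fold change 2.01, standard error 0.19, edgeR adjusted p = 0.00967). Among all tested genes it ranked 6 by p. The gene lies on chromosome 13 from 110395046 to 110400844.

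Perp encodes a membrane protein of desmosomes, the junctions that bind epithelial cells, and is a p53 effector. It had 59.2 and 51.7 CPM in the knockdown libraries, against 11.9 and 8.56 CPM in the control libraries. This was the largest fold change among the 10 genes. The fitted fold was 5.41 (log2 fold change 2.44, standard error 0.25, edgeR adjusted p = 0.00991). Its smallest count, 165 reads in a control library, carries a counting error of 7.78%, far below the difference. The gene lies on chromosome 10 from 18845020 to 18857073.

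Phlda3, which encodes a small pleckstrin homology protein that keeps the survival kinase AKT from the membrane, rose too. It was at 91.3 and 95.4 CPM in the knockdown libraries, against 37.4 and 28.3 CPM in the control libraries. The knockdown libraries differed by a factor of 1.05 and the controls by 1.32. The fitted fold was 2.84 (log2 fold change 1.51, standard error 0.21, edgeR adjusted p = 0.0209). It lies on chromosome 1 from 135766119 to 135769136.

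Zmat3, which encodes a zinc finger protein that binds RNA, had 357.1 and 256.5 CPM in the knockdown libraries, against 196.8 and 155.99 CPM in the control libraries. Its log2 fold change of 0.80 ± 0.22 (SE) did not pass (edgeR adjusted p = 0.106). Trp53inp1, whose product promotes the activating phosphorylation of p53, had 407.8 and 295.3 CPM in the knockdown libraries, against 125.9 and 189.2 CPM in the control libraries. Its log2 fold change of 1.16 ± 0.25 (SE) did not pass (edgeR adjusted p = 0.0653), but did without control replicate 2, at 1.43 (edgeR adjusted p = 0.0349); the other 3 fits that left out a library gave 0.89 to 1.37 and no call. In both genes the knockdown libraries differed by about as much as the controls, with factors of 1.39 in knockdown and 1.26 in control libraries for Zmat3 and of 1.38 in knockdown and 1.50 in control libraries for Trp53inp1. Zmat3 lies on chromosome 3 from 32334792 to 32366014 and Trp53inp1 on chromosome 4 from 11156431 to 11174379.

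**Figure D2:**
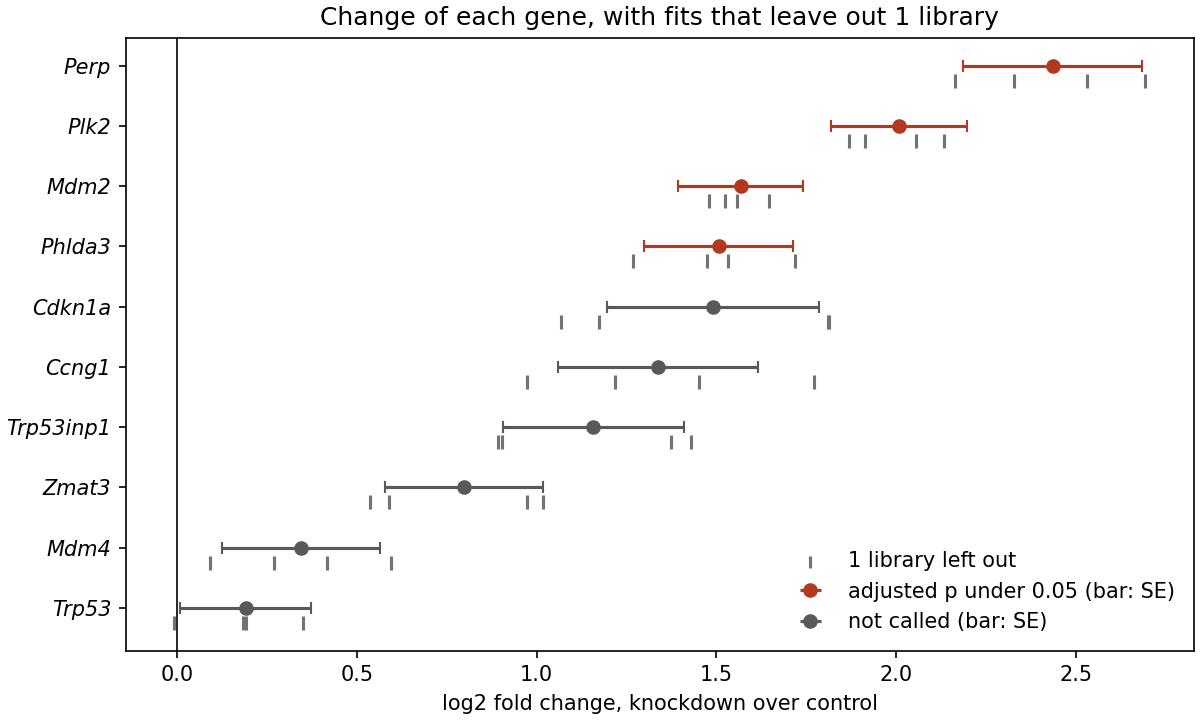
Log2 fold change, knockdown over control, of each gene with its standard error as a bar, in red where the adjusted p was under 0.05, and ticks for the 4 fits that leave out 1 library. The ticks of Perp, Plk2, Mdm2 and Phlda3 stay above 1.2, and a tick of Trp53 lies at -0.0072.

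The controls did not deviate together across these genes. Control replicate 2 was the higher control for Mdm4, Ccng1, Trp53inp1 and Plk2, with Mdm2 close to even. Control replicate 1 was higher for Trp53, Cdkn1a, Perp, Phlda3 and Zmat3. Among the knockdown libraries, replicate 1 was higher for Zmat3, Trp53inp1, Plk2, Ccng1, Perp and Mdm4. Replicate 2 was higher for Cdkn1a, Mdm2 and Phlda3, with Trp53 close to even. Relative to the control mean, Cdkn1a stood at 2.10-fold in knockdown replicate 1 and 3.53-fold in knockdown replicate 2, while Zmat3 stood at 2.02-fold in knockdown replicate 1 and 1.45-fold in knockdown replicate 2.

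The order of the genes by level, in CPM per kilobase of exon, also differed between the groups. Within a group the order depends on the annotated lengths. In the knockdown libraries Ccng1 was highest at 160 ± 17.9, followed by Trp53 at 98.8 ± 0.13 and Mdm2 at 84.9 ± 7.15 (SD, n = 2), and each of these was above the next in both libraries. Phlda3, Trp53inp1, Cdkn1a and Plk2 followed between 59.9 and 41.01, and each overlapped its neighbour in that order. Mdm4 came after them at 33.2 ± 2.32, and Perp at 28.4 ± 2.73 and Zmat3 at 26.8 ± 6.22 overlapped at the low end. In the control libraries Trp53 at 86.6 ± 13.1 and Ccng1 at 63.3 ± 25.5 overlapped each other and lay above the rest (SD, n = 2). From Mdm2 at 28.6 ± 0.21 down to Zmat3 at 15.4 ± 2.52 each gene overlapped the next, and Plk2 at 10.2 ± 0.96 and Perp at 5.25 ± 1.22 were apart at the bottom. In knockdown cells Perp stood at percentile 88.1 of the 14759 tested genes with a length, and in controls at percentile 52.5, while Trp53 stood at percentile 97.7 in knockdown cells and 96.97 in controls.

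**Figure D3:**
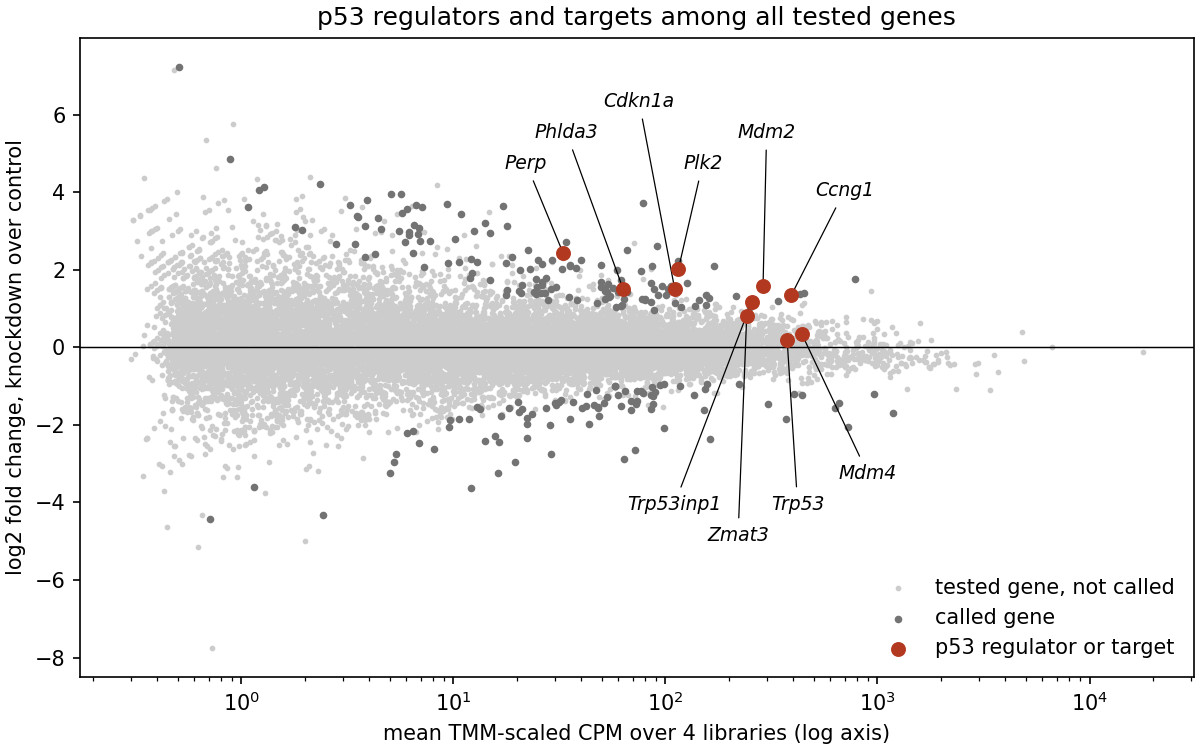
Mean TMM-scaled CPM over the 4 libraries (log axis) against the log2 fold change, knockdown over control, for all 16209 tested genes, with called genes in dark grey and the 10 genes in red. The 10 genes have mean CPM between 32.9 and 439.2, and all are above 0.

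The other genes of the pathway were described by role. For comparison, 0.876% of all tested genes rose and 0.555% fell by edgeR. By DESeq2, 3.81% were called higher and 3.02% lower. At an unadjusted p under 0.05 by edgeR, 11.0% were higher and 8.58% lower. Apoptosis targets outside the 10 genes, 13 in number, included 0 that passed in either direction. The p53 effector Perp, which rose, is 1 of the 10 and not on this list. Of the 13, 7 were higher at an unadjusted p under 0.05 and 0 were lower, 9 had a positive log2 fold change, and the median was 0.54. DESeq2 called 3 higher (Eda2r, Pidd1 and Tnfrsf10b, named after their values were seen) and 0 lower. The apoptosis targets with the highest CPM were Aen, a nuclease gene, at 296.5 and 224.2 CPM in the knockdown libraries and 176.9 and 159.4 CPM in the control libraries (log2 fold change 0.63), and Bax, which encodes a pore-forming death protein, at 182.7 and 184.7 CPM in the knockdown libraries and 157.6 and 114.2 CPM in the control libraries (log2 fold change 0.44).

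Targets in repair, metabolism and restraint of growth, 20 genes, included 3 that rose and 0 that fell, with a median log2 fold change of 0.73. At an unadjusted p under 0.05, 13 were higher and 0 lower, and DESeq2 called 9 higher and 0 lower. Ptpn14, a phosphatase gene that restrains the coactivator YAP, had 210.7 and 165.2 CPM in the knockdown libraries, against 48.8 and 31.6 CPM in the control libraries (4.67-fold, edgeR adjusted p = 0.0134). Ddit4l, a relative of the mTORC1 inhibitor gene Ddit4, had 38.5 and 37.6 CPM in the knockdown libraries, against 8.08 and 14.3 CPM in the control libraries (3.39-fold, edgeR adjusted p = 0.0407). Ak1, which encodes adenylate kinase, had 152.4 and 151.2 CPM in the knockdown libraries, against 68.7 and 38.5 CPM in the control libraries (2.83-fold, edgeR adjusted p = 0.0438). In these 3 genes, named because they were called, both knockdown libraries lay above both controls, as in 27.3% of all tested genes. The knockdown libraries were close to each other in Ddit4l and Ak1. Ddit4l was not called with upper quartile or total count scaling (edgeR adjusted p = 0.0541 and 0.0585), nor Ak1 with RLE or upper quartile scaling (edgeR adjusted p = 0.0538 and 0.0521).

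Among 23 regulators of the p53 protein, 1 rose and 0 fell, 11 had a positive log2 fold change and the median was -0.06. At an unadjusted p under 0.05, 3 were higher and 4 lower, and DESeq2 called 2 in each direction. The gene that rose was Crebbp, which encodes an acetyltransferase that acts on histones and on p53, with 240.8 and 211.2 CPM in the knockdown libraries, against 97.9 and 89.8 CPM in the control libraries (2.41-fold, edgeR adjusted p = 0.0208). Of 13 genes from the p53 family and from the families of the genes above, 2 rose and 0 fell, and the median was -0.15. At an unadjusted p under 0.05, 3 were higher and 2 lower, and DESeq2 called 3 higher and 2 lower. Trp73, which encodes the p53 relative p73, had 44.7 and 38.3 CPM in the knockdown libraries, against 9.09 and 8.40 CPM in the control libraries (4.74-fold, edgeR adjusted p = 0.0101). Phlda1, a paralog of Phlda3, had 30.8 and 54.8 CPM in the knockdown libraries, against 11.6 and 7.57 CPM in the control libraries (4.45-fold, edgeR adjusted p = 0.0346), and was not called without control replicate 2 at a log2 fold change of 1.83 or without knockdown replicate 2 at 1.68.

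Genes of the cell cycle, in which p21 acts, were described next. Of 16 genes for other CDK inhibitors, CDKs and their partners, which differ in role, 0 rose and 1 fell. Of these, 5 had a positive log2 fold change and the median was -0.20. At an unadjusted p under 0.05, 1 was higher and 4 lower. DESeq2 called 1 higher, the inhibitor gene Cdkn2b, and 2 lower, Ccne1 and Pcna. Cdkn2b and Pcna were named after their values were seen. Ccne1, which encodes cyclin E1, a partner of CDK2 at the entry to DNA replication, fell to 96.01 and 99.5 CPM in the knockdown libraries, against 230.6 and 185.1 CPM in the control libraries (log2 fold change -1.09, standard error 0.18, edgeR adjusted p = 0.0388). Leaving out knockdown replicate 1 (-1.07) or knockdown replicate 2 (-1.11) ended this call. Of 25 genes known to be repressed through p21 and the DREAM complex, 0 passed in either direction, 5 were lower and 0 higher at an unadjusted p under 0.05, and 4 had a positive log2 fold change, with a median of -0.25. DESeq2 called 0 higher and 3 lower (Top2a, with Bub1 and Kif23 chosen after their values were seen). Of all tested genes, 50.5% had a positive log2 fold change. Those of the 25 with the highest CPM, Mybl2 and Top2a, had log2 fold changes of 0.09 and -0.71 (edgeR adjusted p = 0.862 and 0.118).

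**Figure D4:**
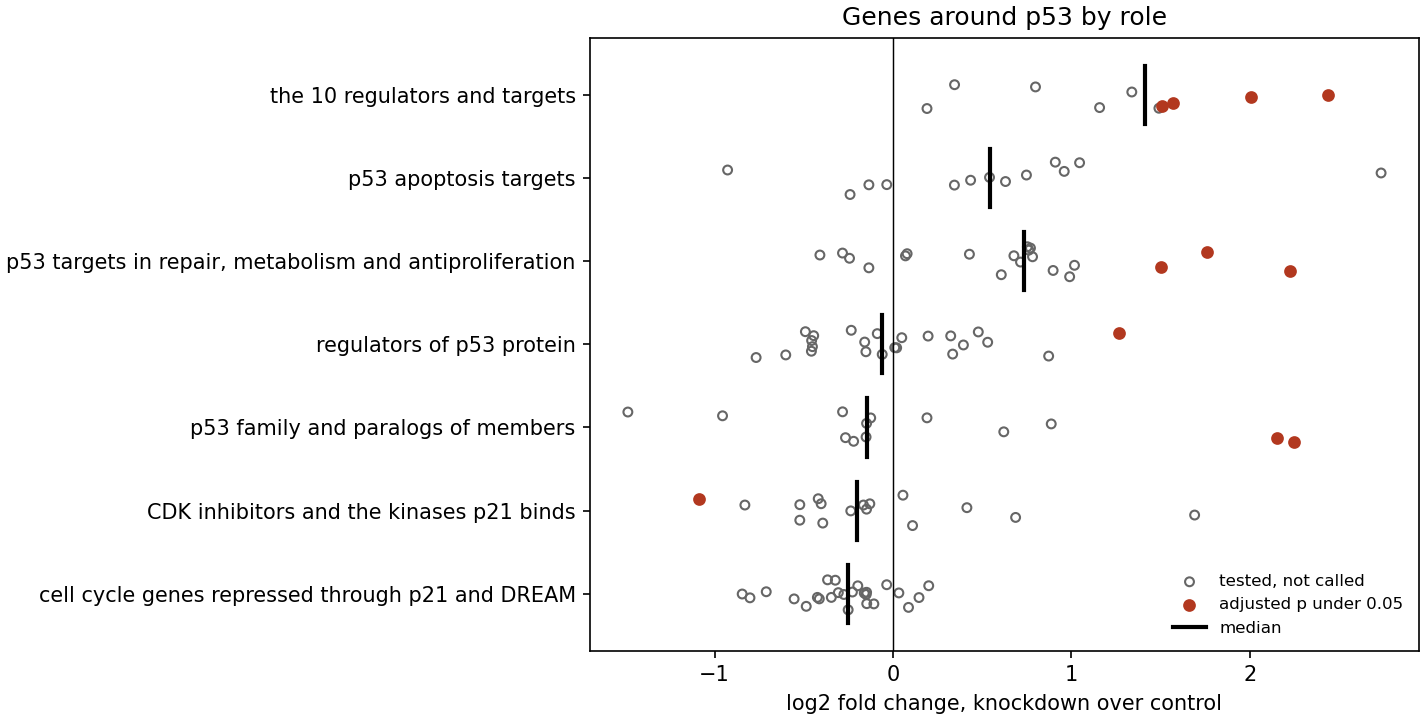
Log2 fold change, knockdown over control, of each tested gene by role, with called genes filled and the median of a role as a black bar. The medians run from 1.41 for the 10 genes at the top to -0.25 for the cell cycle genes at the bottom.

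The libraries held 16383323 to 19867689 counts, and at this depth each of the 10 genes had at least 165 reads in every library, so the number of libraries limits precision more than counting does. Correlation across genes of log2 CPM was 0.979 between knockdown libraries and 0.968 between controls, against 0.944 to 0.959 across groups. Embryonic stem cell markers were abundant in every library, with a summed level of 5145 to 5787 CPM in the knockdown libraries and 7087 to 7334 CPM in the control libraries over 8 genes. Of these 1, Tdgf1, fell by edgeR, and DESeq2 and the likelihood ratio test called 2 lower, Tdgf1 and Dppa5a. As background for all marker lists, edgeR called 0.876% of all tested genes higher and 0.555% lower. The shares were 3.81% and 3.02% by DESeq2. The likelihood ratio test called 1310 of 16209 genes, 796 of them higher. Pou5f1, Sox2 and Nanog were not called, with log2 fold changes of -0.24, -0.07 and -0.27. At an unadjusted p under 0.05 by edgeR, 2 of the 8 were lower and 0 higher, against 8.58% and 11.0% of all tested genes. Of the 8, 1 had a positive log2 fold change, and the median was -0.25. Of 10 fibroblast markers 5 were tested, with a summed level of 19.2 to 20.04 CPM in the knockdown libraries and 27.6 to 38.1 CPM in the control libraries; Lum and Postn were at 0 in every library. Of the fibroblast markers edgeR called 0, with 1 higher and 2 lower at an unadjusted p under 0.05, and DESeq2 and the likelihood ratio test called 2 lower, Pdgfrb and Thy1. These 4 markers were named after their values were seen. Of 7 primitive endoderm markers 6 were tested and edgeR called 0; DESeq2 and the likelihood ratio test called 1 higher, Gata6, named after its values were seen. At an unadjusted p under 0.05, 4 of the 6 were higher, against 11.0% of all tested genes, and the 2 groups overlapped in Dab2. Pdgfra stands on both the fibroblast and the primitive endoderm list and enters both sums. It was 1 of these 4 and also the 1 higher fibroblast marker, and was named after its values were seen. Foxa2, which was not tested, had 3 and 36 reads in the knockdown libraries, against 2 and 6 reads in the control libraries. The sum of the 6 was 27.5 to 40.3 CPM in the knockdown libraries and 12.6 to 18.1 CPM in the control libraries. Trophectoderm markers, 5 of 7 tested and 0 called by edgeR, by DESeq2, by the likelihood ratio test or at an unadjusted p under 0.05, summed to 56.6 to 101.9 CPM in the knockdown libraries and 67.9 to 75.2 CPM in the control libraries. The part of these markers in the results was not tested. Lx8-SINE B2 itself was not analysed here, because no row carries that name.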

How the data were processed

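Messenger RNA was sequenced from 2 knockdown and 2 control libraries, grouped by their titles. The deposited table holds raw counts of reads for each gene symbol, which the authors did not normalize. Per the submitters' processing notes, cutadapt, HISAT2 and featureCounts were used with mm10; the sources used here give no version, annotation, strand setting or rule for multi-mapping reads. From 36068 rows, 92 spike-in rows with 0 counts were left out. Of the remaining 35976 genes, filterByExpr of edgeR 4.0.16 (R 4.3.3) kept 16209, and libraries were scaled by TMM. The test was edgeR's quasi-likelihood test with group as the only term, adjusted by the Benjamini-Hochberg method across tested genes, with calls at an adjusted p under 0.05. SE is the log2 fold change over the root of the F statistic, unsigned. Exon lengths came from GENCODE M21 (GRCm38, the build of mm10) and promoters from RefSeq.

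The 10 genes and the role lists were chosen with earlier results of these data known. Outside the 10, up to 4 called genes by smallest p were named from each role list, or the 2 most abundant where none was called, beside 3 embryonic stem cell genes. The alternatives were RLE, upper quartile and total count scaling, no filter or 1 CPM in 2 libraries, limma-voom (limma 3.58.1), DESeq2 1.42.0, edgeR's likelihood ratio test, a block for the replicate number, calls at 0.01, thinning to the shallowest library and leaving out each library, where the lone library of a group is assumed to vary like the other group.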

Additional observations from a re-analysis of the deposited data

How the results depend on the processing

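The 4 called genes Mdm2, Plk2, Perp and Phlda3 kept their call and direction in all 15 alternatives, except that Mdm2 and Phlda3 missed an adjusted p of 0.01. All 10 genes stayed positive except Trp53, at -0.0072 without control replicate 2. The number called of the 10 was 8 with no filter on low counts, with DESeq2 and with the likelihood ratio test, adding Ccng1, Cdkn1a, Trp53inp1 and Zmat3, and 2 at an adjusted p of 0.01; it was 4 to 6 when 1 library was left out. In the same order of settings, all called genes numbered 1717, 1107, 1310 and 17, those called higher 996, 617, 796 and 11, and called genes of the role lists 30, 27, 26 and 0, against 232, 142 and 7. Tested genes numbered 26525 with no filter and 16209 with DESeq2, the likelihood ratio test and an adjusted p of 0.01. The fits that left out 1 library tested 16964 to 17195 genes. Leaving out 1 library gave 153 to 587 called genes, 108 to 389 called higher and 6 to 17 in the role lists; with 587 the library left out was control replicate 1, and with 153 knockdown replicate 2. The cause of these shifts was not tested. With the replicate block, 656 genes were called, 428 of them higher, with 7 of the 10 genes and 15 of the role lists; the labels do not say that a number pairs libraries, and deviations of same-numbered libraries correlated at -0.052 across genes. Genes not called that changed sign when 1 library was left out ranged from -0.0072 to 0.35 (Trp53), -0.39 to 0.24 (Sox2), -0.54 to 0.017 (Nanog) and -0.15 to 0.30 (Mybl2, also -0.071 without knockdown replicate 2). The higher end came without control replicate 1 and the lower without control replicate 2 for Trp53, Sox2 and Mybl2, and the reverse for Nanog.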
